A study of Mus musculus with 23 samples.

Results

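The mitochondrial ribosomal proteins described here were 74 genes whose symbol on the array's platform table begins with Mrpl or Mrps and a number, out of 12393 genes with a probe set of their own. Where a gene had several probe sets, the one brightest on average over the 23 arrays was read, whatever its change, and all 74 passed the filter on low values that 9133 of the 12393 genes passed. The 23 arrays came from hindlimb muscle of female C57BL/6J mice, 77 days old by the labels, with 1 array per sample and no genetic change named in the labels. The flight experiment had 4 Spaceflight samples of gastrocnemius and 4 Ground AEM samples from mice kept on earth in an animal enclosure module, both for 11 days and 19 hr. The calf experiment had 5 Suspension samples from mice hung by the tail for 12 days with the hindlimbs unloaded, 5 Reloaded samples from mice returned to the cage floor for 3.5 hr after 12 days of suspension, and 5 Control samples from untreated mice in normal caging.

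The free-text descriptions of the Ground AEM and Spaceflight samples are exchanged relative to their titles and source names. The titles were followed, and if the descriptions were right, every flight difference below would change sign. The labels number the replicates but do not say that each is a separate animal. A p-value here sets a difference against the spread among these samples, which may not be a spread among animals. The 3 calf groups share no replicate numbers, and neither do the 2 flight groups. The 13 skeletal muscle markers were high on all arrays, with a log2 sum of signals between 16.84 and 16.98. The interquartile range of log2 values was 2.75 to 2.91 on the flight arrays and 2.20 to 2.46 on the calf arrays, and Suspension replicate 8 had the narrowest, at 2.20. Levels were therefore compared only within an experiment.

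The mitochondrial ribosome makes the few proteins encoded by mitochondrial DNA, all of them core subunits of the respiratory chain and of ATP synthase. Its RNAs come from the mitochondrial genome, but every one of its proteins is encoded in the nucleus, made in the cytosol and imported. Some of these proteins have counterparts in bacterial ribosomes and others are found only in mitochondria. Skeletal muscle is rich in mitochondria. The nuclear factors NRF1, GABPA and ESRRA with the coactivator PGC-1alpha are known regulators of nuclear genes for mitochondrial proteins.

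By role, 27 members were large-subunit proteins with a bacterial counterpart and 22 were large-subunit proteins specific to mitochondria. The small subunit had 16 members of the first kind and 8 of the second. Mrps36 was kept apart, since the protein is now placed in the 2-oxoglutarate dehydrogenase complex and not in the ribosome. For 33 members the array carried several single-symbol probe sets. The chosen probe sets of Mrpl19, Mrpl28, Mrpl37, Mrpl38, Mrps12 and Mrps24 are of types that can also bind other transcripts, so their values are less certain.

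Promoter sequence is shown because GABPA and NRF1, named above, and the factor YY1 are known to bind promoters of nuclear genes for mitochondrial proteins. RefSeq (assembly GRCm38.p6) gave promoter windows for 65 of the 74 members, 71 windows in all, each of 250 bases before and 50 after a transcription start. On either strand, the GABPA core CCGGAAG lay in 24 of 71 member windows, or 33.8%, against 8.86% of all 32851 windows and 11.6% of the 21263 windows of protein-coding genes. The NRF1 core GCGCATGCG lay in 9.86% of member windows against 2.35% of protein-coding windows, and the YY1 core AAGATGGCG in 9.86% against 1.83%. At least 1 of these 3 motifs was present in 34 of 71 member windows, or 47.9%, against 14.8% of protein-coding windows. The SP1 core GGGCGG was in 54.9% against 46.2%, the CCAAT box CCAAT in 39.4% against 38.2%, and the TATA box TATAAA in 7.04% against 12.6%. These shares describe letters in a window and not bound sites, and no motif was set against the expression differences by a test.

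Of the members with the smallest p-values in suspension, Mrpl34, Mrpl21 and Mrpl3 had a window, and so did Mrps6, which had the smallest p-value in flight. The 250 bases before the start are printed 5′ to 3′ for these 4, all on the plus strand of GRCm38.p6, with any NRF1, GABPA or YY1 core in capitals. Mrpl34 and Mrpl3 each held a GABPA core, while Mrpl21 and Mrps6 held none of the 3 motifs in these bases. The Mrpl21 window did hold a GABPA core on the other strand, from base 8 after the start, which is not printed.
Mrpl34, chr8:71464676-71464925: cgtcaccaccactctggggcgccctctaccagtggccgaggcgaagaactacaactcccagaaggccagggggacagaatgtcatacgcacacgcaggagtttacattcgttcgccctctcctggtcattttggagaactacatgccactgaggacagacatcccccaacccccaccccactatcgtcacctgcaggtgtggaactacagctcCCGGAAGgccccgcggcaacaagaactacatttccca
Mrpl21, chr19:3282792-3283041: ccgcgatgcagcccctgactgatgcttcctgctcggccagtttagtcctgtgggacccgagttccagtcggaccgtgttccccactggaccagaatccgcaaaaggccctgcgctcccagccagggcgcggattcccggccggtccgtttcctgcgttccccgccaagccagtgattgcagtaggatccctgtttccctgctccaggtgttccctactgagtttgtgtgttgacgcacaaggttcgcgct
Mrpl3, chr9:105053018-105053267: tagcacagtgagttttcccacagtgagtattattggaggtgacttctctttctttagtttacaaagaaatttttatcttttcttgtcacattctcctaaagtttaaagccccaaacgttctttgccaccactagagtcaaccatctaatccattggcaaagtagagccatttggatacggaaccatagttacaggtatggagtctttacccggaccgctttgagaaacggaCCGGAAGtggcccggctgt
Mrps6, chr16:92058086-92058335: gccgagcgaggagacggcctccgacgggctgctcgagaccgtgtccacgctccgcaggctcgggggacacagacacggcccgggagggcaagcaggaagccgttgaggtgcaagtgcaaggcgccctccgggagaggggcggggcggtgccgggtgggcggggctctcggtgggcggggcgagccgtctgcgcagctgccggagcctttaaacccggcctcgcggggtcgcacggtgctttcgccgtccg

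Hindlimb suspension was compared with Control calf to ask what unloading did to these genes. No single member passed the test, but the members lay lower as a group: 68 of 74 had a lower mean in Suspension, and the median log2 difference was -0.13, which is a change of -8.35%. Over all 9133 genes tested, 49.1% had a lower mean and the median was 0.00. The members' differences had quartiles of -0.20 and -0.07 and ran from -0.34 for Mrpl34 to 0.12 for Mrpl52. At an unadjusted p under 0.05, 20 members were lower and 0 higher, against 5.04% and 3.61% of all genes. The 74 members are not independent of each other, since many moved together on an array. In Control replicate 22, 5 of 74 lay below their own group mean, and in Suspension replicate 8, 63 did. None of the 74 was called by limma at a Benjamini-Hochberg adjusted p under 0.05, where 0.372% of all genes were called, and the smallest adjusted p among members was 0.198. In bulk muscle, fewer cells of a type and less RNA per cell cannot be told apart.

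In 4 members every Suspension sample lay below every Control sample, against 1.34% of all genes, and in 0 members the reverse, against 0.701%. Mrpl34, a large-subunit protein with a bacterial counterpart, had log2 signals of 8.56, 8.54, 8.76, 8.72 and 8.67 in Control and 8.46, 8.43, 8.22, 7.96 and 8.49 in Suspension. The groups did not overlap, and Suspension replicate 8 was the lowest. The difference was -0.34 ± 0.10 (SE, n = 5 and 5, limma adjusted p = 0.198), and it was -0.12 (adjusted p = 0.644) when the gene's single-symbol probe sets were averaged.

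Mrps35, a mitochondria-specific protein of the small subunit, was at 7.47, 7.44, 7.49, 7.58 and 7.65 in Control and at 7.39, 7.18, 7.24, 7.14 and 7.37 in Suspension. Here too no Suspension sample reached the lowest Control sample, and the difference was -0.26 ± 0.08 (SE, limma adjusted p = 0.255). Mrpl4, whose bacterial counterpart lines the exit tunnel for the growing chain, was at 9.04, 9.12, 9.17, 9.19 and 9.10 in Control and at 9.03, 9.03, 8.75, 8.73 and 8.86 in Suspension. Its groups were separated by only a narrow gap, with a difference of -0.25 ± 0.08 (SE, limma adjusted p = 0.271). The fourth, Mrpl20, another large-subunit protein with a bacterial counterpart, differed by -0.21 ± 0.08 (SE, limma adjusted p = 0.443).

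Among members whose groups overlapped, Mrpl21 had the smallest p, with a difference of -0.23 ± 0.07 (SE, limma adjusted p = 0.283). Mrpl21 was at 8.71, 8.76, 8.67, 8.69 and 8.64 in Control and at 8.64, 8.41, 8.46, 8.39 and 8.45 in Suspension, so that a single Suspension sample, replicate 11, reached the Control range. Mrpl3, whose counterpart reaches toward the peptidyl transferase centre, differed by -0.29 ± 0.10 (SE, limma adjusted p = 0.354), with replicate 8 at 7.56 and the other Suspension samples at 8.06 to 8.15. Without replicate 8, the Mrpl3 difference was -0.18. Mrpl41, Mrps36, Mrps28, Mrpl19, Mrpl49 and Mrpl16 had differences between -0.29 and -0.18, all uncalled, and without replicate 8 that of Mrpl19 was -0.18. Mrpl52, at the upper end, was at 0.12 ± 0.08 (SE), while other probe sets of this gene gave -0.22 and 0.05. Without replicate 8 or without replicate 9, Mrpl52 was at 0.08.

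The lower means were spread over both subunits and both origins. Among large-subunit members, 26 of 27 with a bacterial counterpart and 19 of 22 specific to mitochondria had a lower mean in Suspension, with medians of -0.11 and -0.15. In the small subunit the counts were 14 of 16 and 8 of 8, with medians of -0.10 and -0.12. No test of a difference between these classes was made. Where a member had further probe sets above the filter, 31 of those 38 probe sets also had a lower mean, with a median of -0.08.

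The size of the shift differed among the Suspension samples. Taking each member's difference from its Control mean, the median over the 74 members was -0.07 in replicate 11, -0.06 in replicate 25, -0.19 in replicate 30, -0.30 in replicate 8 and -0.05 in replicate 9. The Control samples had medians of -0.04, -0.02, -0.03, 0.07 and -0.01 for replicates 19, 1, 21, 22 and 2. Every Suspension sample thus lay below every Control sample, with replicates 9 and 25 close to the lowest Control sample and replicates 8 and 30 well below the rest. In replicate 8, 70 of 74 members were below their Control mean, and in replicate 9 43 of 74. Without replicates 8 and 30, an alternative chosen after the data were seen, the median difference was -0.06 and 55 of 74 members had a lower mean. The interquartile range of log2 values was 2.45, 2.46, 2.33, 2.20 and 2.29 in replicates 11, 25, 30, 8 and 9, against 2.34 to 2.44 in Control. With this array range as a covariate, the median difference was -0.09 and 68 of 74 members had a lower mean.

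**Figure D1:**
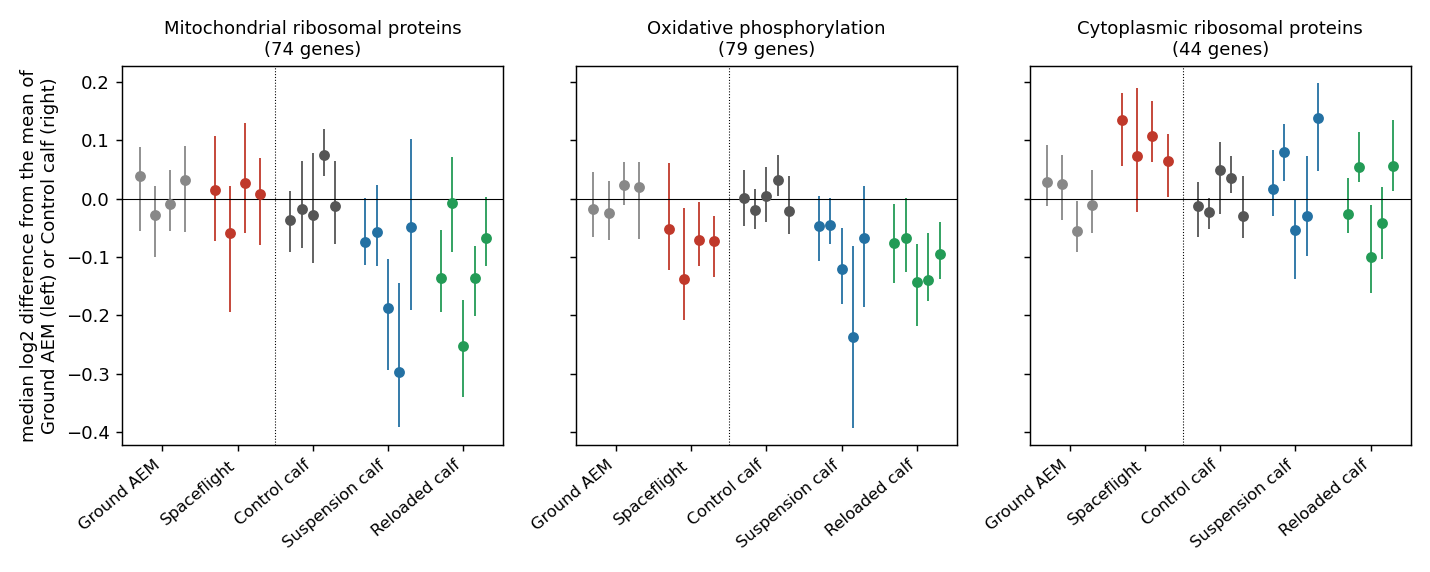
Median log2 difference of each gene list on each of the 23 arrays, from the mean of Ground AEM for the flight arrays and of Control calf for the calf arrays. Points are medians over the genes of the list and bars run from the lower to the upper quartile over genes; Suspension replicates 30 and 8 and Reloaded replicate 16 have the lowest medians of the mitochondrial ribosomal proteins (-0.19, -0.30 and -0.25).

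Other gene lists were read in the same samples. The 79 tested genes of oxidative phosphorylation had a median of -0.10 in suspension with 75 lower and 0 called. In 6 of them every Suspension sample lay below every Control sample, against 1.34% of all genes. All 79 are nuclear genes, so none encodes a protein that these ribosomes make. The 44 tested cytoplasmic ribosomal proteins, made for the other ribosome of the cell, had a median of 0.02 with 29 higher. Of the 9 slow-fibre markers, 9 were lower and 3 were called lower, with a median of -0.47, and their log2 summed signal was 14.99 to 15.13 in Control and 14.49 to 14.82 in Suspension. The 4 measured Schwann cell markers were all higher with 1 called, with summed signals of 10.37 to 10.76 and 11.48 to 12.20. The 6 measured adipocyte markers were all higher with 0 called, at 11.16 to 11.51 against 11.39 to 11.81. Their part in the members' lower means was not tested.

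Reloaded calf was compared with Control calf to see where the members stood 3.5 hr after weight bearing resumed. No member was called, where 0.318% of all genes were, yet 72 of 74 had a lower mean than Control against 58.2% of all genes. The median difference was -0.12, a change of -8.11%, against -0.02 for all genes. At an unadjusted p under 0.05, 15 members were lower and 0 higher, against 4.38% and 2.89% of all genes. Here too the members are not independent of each other. In Reloaded replicate 15, 9 of 74 lay below their own group mean, and in Reloaded replicate 16, 67 did. In 0 members did the groups separate fully, against 0.942% of all genes in the higher and 1.7% in the lower direction.

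The smallest p belonged to Mrpl41, a mitochondria-specific protein of the large subunit. It was at 8.30, 8.53, 8.45, 8.50 and 8.54 in Control and at 8.13, 8.29, 8.22, 8.22 and 8.36 in Reloaded, and only Control replicate 19 fell within the Reloaded range. The difference was -0.22 ± 0.07 (SE, n = 5 and 5, limma adjusted p = 0.358). Mrpl16, Mrps24, Mrps35 and Mrpl34 lay at -0.22 as well, and Mrpl4 at -0.20. The lowest value was that of Mrpl43, at -0.23, or -0.15 without Reloaded replicate 16. The highest was that of Mrps15, a small-subunit protein with a bacterial counterpart, at 0.05, and leaving out 1 sample moved it between -0.01 and 0.10.

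By class, 26 of 27, 22 of 22, 15 of 16 and 8 of 8 members had a lower mean in Reloaded, with medians of -0.12, -0.12, -0.13 and -0.09 in the order used above. Among Reloaded samples, the median over the members was -0.14 in replicate 14, -0.01 in replicate 15, -0.25 in replicate 16, -0.14 in replicate 18 and -0.07 in replicate 33. Replicate 15 thus lay within the Control range while replicate 16 had 72 of 74 members below their Control mean. Without replicate 16 the median difference was -0.07. Replicate 16 also had the narrowest array range of the Reloaded samples, at 2.31, and the widest was 2.44. With the array range as a covariate, the median difference was -0.13 and 72 of 74 members had a lower mean. The slow-fibre markers were lower than Control in 9 of 9 with 0 called, at a log2 sum of 14.38 to 15.03. The 4 Schwann cell markers were all higher with 0 called, with a median of 0.42 and a log2 sum of 10.30 to 12.38. Oxidative phosphorylation genes were lower in 72 of 79 with 0 called. In 19 of them every Reloaded sample lay below every Control sample, against 1.7% of all genes. Of the 6 adipocyte markers 4 were higher and 2 lower, with 0 called. The part of these in the members' lower means was not tested.

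Reloaded and Suspension share the Control samples, so their lower means are not independent of each other. Side by side, 67 members were lower than Control in both, 6 in one of them, and 1 in neither. That gene, Mrpl28, was singled out after its values were seen, and lay at 0.02 in both.

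Reloaded was then set against Suspension directly, to ask whether 3.5 hr of reloading moved the members. The members had no common direction: 41 had a higher and 33 a lower mean in Reloaded, against 58.1% lower of all genes, and the median difference was 0.01. No member was called, where 0.58% of all genes were. At an unadjusted p under 0.05, 1 member was higher and 1 lower, against 4.31% and 4.83% of all genes. In 0 members did the groups separate, against 0.832% of all genes in the higher and 0.624% in the lower direction. Mrpl57, a mitochondria-specific large-subunit protein, had the lowest p, at 9.09, 9.19, 8.99, 9.02 and 9.52 in Suspension and 8.90, 9.00, 8.83, 8.96 and 9.07 in Reloaded. The ranges overlapped and the difference was -0.21 ± 0.09 (SE, limma adjusted p = 0.474). Suspension replicate 9 was the highest, and without it the Mrpl57 difference was -0.12. Mrps15 and Mrpl19, at the other end, were both at 0.24, and in both the Suspension samples were widely spread, from 7.59 to 8.30 in Mrps15 and from 6.05 to 6.82 in Mrpl19. Without Suspension replicate 8 the differences were 0.15 for Mrps15 and 0.13 for Mrpl19, and without replicate 9 that of Mrps15 was 0.16. When Suspension replicates 8 and 30 were left out, 57 of 74 members had a lower mean in Reloaded and the median was -0.05. With the array range as a covariate, 45 of 74 had a lower mean in Reloaded and the median was -0.03.

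**Figure D2:**
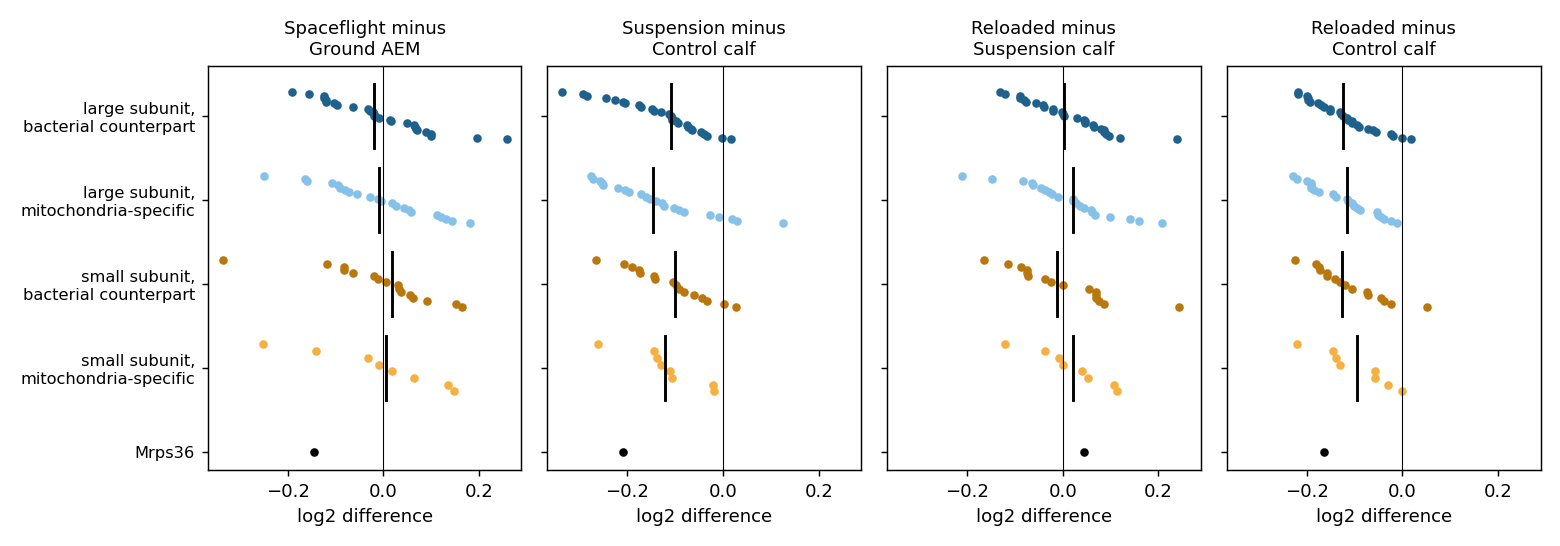
Log2 difference of every member in the 4 group comparisons, by subunit and by whether a bacterial counterpart exists. Each point is 1 gene, the points of a class are spread vertically by rank, and the black bar is the class median; in the suspension and reloaded panels the medians lie between -0.15 and -0.09, and in the other panels between -0.02 and 0.02.

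In the flight experiment, Spaceflight was compared with Ground AEM gastrocnemius. Here the members had no common direction: 35 had a higher and 39 a lower mean in Spaceflight, with 53% of all genes lower, and the median difference was -0.01, the same as over all genes. No member was called, although 5.64% of all genes were. At an unadjusted p under 0.05, 3 members were higher and 4 lower, against 10% and 9.6% of all genes. Medians by class were -0.02, -0.01, 0.02 and 0.00 in the order used above. The 3′ minus 5′ log2 signal of the Gapdh control probe sets was 0.01 to 0.11 in Spaceflight and -0.06 to 0.03 in Ground AEM. With it as a covariate, 47 of 74 members and 52.6% of all genes were lower, and the members' median was -0.03. The smallest adjusted p among members was then 0.516 by limma, and 124 of all genes were called in place of 515.

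Mrps6, a small-subunit protein with a bacterial counterpart, had the smallest p. It was at 7.46, 7.33, 7.73 and 7.71 in Ground AEM and at 7.22, 7.27, 7.37 and 7.04 in Spaceflight, where only the highest Spaceflight sample passed the lowest Ground AEM sample. The difference was -0.34 ± 0.10 (SE, n = 4 and 4, limma adjusted p = 0.0835). Without Ground AEM replicate 2 it was -0.41 and passed the test (adjusted p = 0.0393), while over all alternatives the adjusted p ran up to 0.663.

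Mrpl45, which lies at the exit tunnel and ties the ribosome to the inner membrane, was at 8.54, 8.58, 8.44 and 8.70 in Ground AEM and at 8.38, 8.35, 8.36 and 8.18 in Spaceflight. Its groups did not overlap, and the difference was -0.25 ± 0.08 (SE, limma adjusted p = 0.105). Mrpl42 was the other member that lay lower in every Spaceflight sample, by -0.09 on average (limma adjusted p = 0.479), although averaging the probe sets of Mrpl42 turned the sign, to 0.014. Of all genes, 6% separated in that direction. Mrps25, a mitochondria-specific protein of the small subunit, differed by -0.25 ± 0.10 (SE, limma adjusted p = 0.190) with overlapping groups.

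In the higher direction, Mrpl17, Mrps2 and Mrps35 lay higher in every Spaceflight sample than in any Ground AEM sample, against 6.38% of all genes. Mrpl17 was at 8.76, 9.00, 9.02 and 8.84 in Ground AEM and at 9.15, 9.09, 9.11 and 9.05 in Spaceflight, a difference of 0.20 ± 0.08 (SE, limma adjusted p = 0.194). Another probe set of Mrpl17 gave -0.23, so the direction for this gene depends on the probe set. Mrps2 differed by 0.15 ± 0.07 (SE, limma adjusted p = 0.252), and its other probe set, too, went the opposite way, at -0.14. Mrps35, lower in every Suspension sample than in any Control sample, was at 7.68, 7.59, 7.71 and 7.61 in Ground AEM and at 7.80, 7.85, 7.72 and 7.76 in Spaceflight, with a difference of 0.13 ± 0.07 (SE, limma adjusted p = 0.324).

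Mrpl33, a small large-subunit protein with a bacterial counterpart, had the highest value, 0.26 ± 0.09 (SE, limma adjusted p = 0.108). It was at 7.12, 6.97, 6.92 and 6.85 in Ground AEM and at 7.33, 7.09, 7.31 and 7.18 in Spaceflight, with 1 Spaceflight sample inside the ground range. When all 112 probe sets above the filter were tested separately, 1 was called, a dim probe set of Mrpl3 with a mean log2 of 5.88 that was 0.35 higher (limma adjusted p = 0.0251). The chosen and brighter probe set of Mrpl3 did not share this, at 0.01.

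Other gene lists were read on the flight arrays too, and no test set them against the members. In oxidative phosphorylation, 61 of 79 genes were lower and 1 was called, with a median of -0.09. In 20 of the 79 every Spaceflight sample lay below every Ground AEM sample, against 6% of all genes. Cytoplasmic ribosomal proteins had a median of 0.09 with 35 of 44 higher and 3 called higher. Of the 6 measured adipocyte markers, 5 were called higher, with log2 sums of 11.23 to 11.39 in Ground AEM and 11.77 to 12.06 in Spaceflight, and of the 9 slow-fibre markers 4 were higher and 5 lower, with 1 called lower. Their part in the members' values was not tested.

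**Figure D3:**
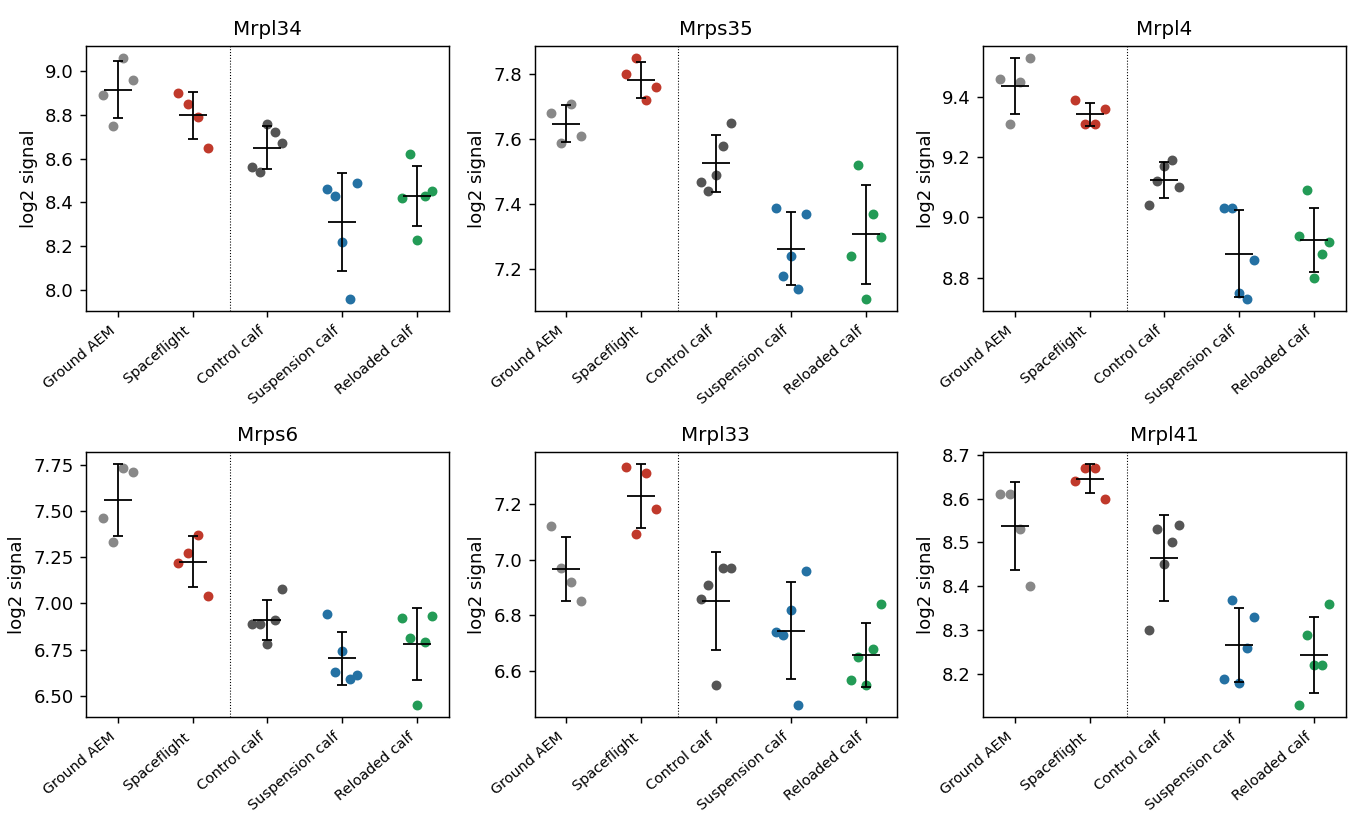
Log2 signal of 6 members on every array, with points for samples and black bars for the group mean ± SD; the dotted line divides the flight experiment (4 samples a group) from the calf experiment (5 a group). Suspension samples of Mrpl34, Mrps35 and Mrpl4 all lie below Control, while Mrps35 lies higher in Spaceflight than in Ground AEM; the y axes do not start at 0.

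The flight and calf effects on these genes were then compared by a test of their difference, each effect taken within its own experiment. The experiments also differ in the muscle named, the housing of the controls and the array range. A difference between their effects therefore cannot be assigned to flight or to unloading. The flight difference minus the suspension difference was above 0 for 61 of 74 members, against 48.1% of all genes, with a median of 0.12 against -0.01. No member was called, where 1.27% of all genes were. At an unadjusted p under 0.05, 8 members were above 0 and 1 below, against 6.37% and 5.78% of all genes. With the array range as a covariate the median was 0.04, and without Suspension replicates 8 and 30 it was also 0.04. With the Spaceflight and Ground AEM titles exchanged, as the sample descriptions would have it, 14 of 74 members were below 0. The median was then 0.11, so the share above 0 was much the same in either reading. The members' median was -0.01 in flight and -0.13 in suspension, so that share largely restates the lower means in Suspension.

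By the titles, Mrps35 came closest to a call: its effects were 0.13 in flight and -0.26 in suspension, and they differed by 0.40 ± 0.11 (SE, limma adjusted p = 0.0691). This value rests on the flight titles: with them exchanged Mrps35 was at 0.13 (limma adjusted p = 0.595), Mrpl41 at 0.09 and Mrpl33 at -0.15, and 2 members were called, with a smallest adjusted p of 0.023. With probe sets averaged within genes in place of 1 per gene, the same Mrps35 value had an adjusted p of 0.0466. Mrpl41 was at 0.11 and -0.20, a difference of 0.31 ± 0.10 (SE, limma adjusted p = 0.147). Mrpl33 was at 0.26 and -0.11, a difference of 0.37 ± 0.13 (SE, limma adjusted p = 0.229). Mrpl52 went the other way, at -0.16 in flight and 0.12 in suspension, but averaging its probe sets turned that sign. Across the 74 members, which are not independent replicates, the flight and suspension differences had a Pearson correlation of 0.17 and a Spearman correlation of 0.21, against 0.26 and 0.18 over all genes. Of the 39 members below 0 in flight, 36 were also below 0 in suspension. That share is close to the 68 of 74 below 0 in suspension, so this count shows no relation between the effects.

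The flight effect was also compared with Reloaded minus Control. This comparison shares its flight and Control samples with flight minus suspension, so their counts are not independent of each other. The members' median was -0.01 in flight and -0.12 in Reloaded minus Control, so the count largely restates the lower means in Reloaded. The flight effect was higher in 61 of 74 members, against 51.8% of all genes. The median difference was 0.10, against 0.01 over all genes. The median was 0.06 without Reloaded replicate 16 and 0.06 with the array range as a covariate. With the flight titles exchanged, 10 of 74 members were below 0 and the median was 0.11. None was called, where 2.74% of all genes were, and 10 members were above 0 and 0 below at an unadjusted p under 0.05, against 8.03% and 5.78% of all genes. Mrps24, a small-subunit protein with a bacterial counterpart, was at 0.16 in flight and -0.22 in Reloaded, and the effects differed by 0.39 ± 0.11 (SE, limma adjusted p = 0.0632). Mrpl33 differed by 0.46 ± 0.13 (SE, adjusted p = 0.0657) and Mrpl41 by 0.33 ± 0.10 (SE, adjusted p = 0.0739). These 3 lay just above the threshold of 0.05, and each passed it under some alternatives, among them array weights, with which 6 members were called. With the flight titles exchanged they were at 0.06, -0.06 and 0.11, all uncalled. Mrps25 was the lowest, at -0.22 ± 0.13 (SE, adjusted p = 0.501), -0.15 without Ground AEM replicate 4 and 0.28 with the titles exchanged.

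**Figure D4:**
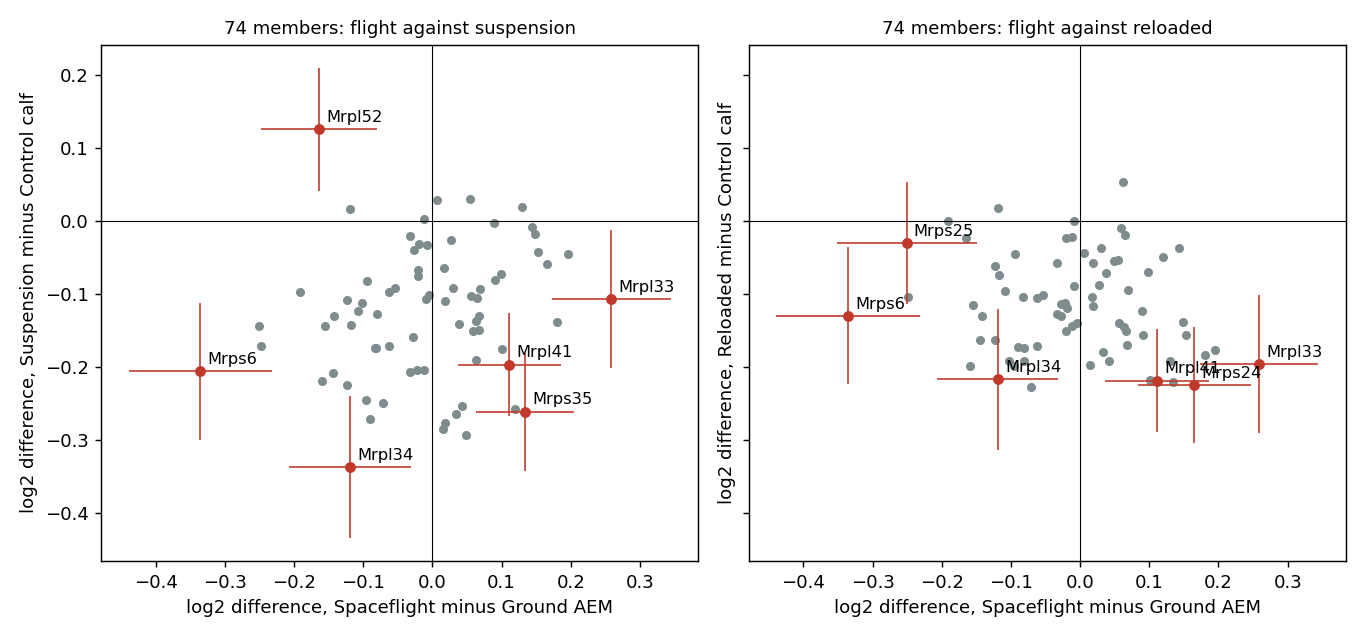
Log2 difference of each of the 74 members in flight (x axis) against suspension (left) and against Reloaded minus Control (right). Red points are named members with bars of 1 SE; the points lie on both sides of 0 along x and mostly below 0 along y, with 68 and 72 of 74 below.

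The partners of the ribosome in mitochondrial gene expression were read from lists of fixed genes. Of ribosomal proteins outside the symbol rule, 4 were measured, and all 4 were lower in Suspension, with a median of -0.13 and 0 called. Dap3, a small-subunit protein that binds GTP, was among them at -0.07. Of 16 tested genes for ribosome assembly and rRNA processing, 13 were lower in Suspension and 0 called, with a median of -0.09. Nsun4, which methylates ribosomal RNA and helps join the subunits, had the lowest value, -0.32 ± 0.09 (SE, limma adjusted p = 0.198).

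Of 7 translation factors, 5 were lower in Suspension with 0 called. Gfm1, the elongation factor that moves the ribosome along the message, was at -0.29 ± 0.08 (SE, limma adjusted p = 0.145), and every Suspension sample lay below every Control sample. Gfm2, the related factor that recycles ribosomes, was at -0.24 ± 0.08 (SE, limma adjusted p = 0.259), and Tufm, which carries the aminoacyl-tRNA, at -0.10. In flight the same 3 genes were at -0.03, 0.04 and -0.08. Of 9 aminoacyl-tRNA synthetases, 1 was called in flight, Pars2 for proline, at 0.31 ± 0.08 (SE, limma adjusted p = 0.0436). Its Ground AEM mean of 5.51 lay under the level filter of 5.83.

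Of 7 genes for mitochondrial DNA and transcription, none was called in any group comparison. Tfam, which packages mitochondrial DNA, was at -0.10 in suspension and -0.02 in flight, and the RNA polymerase gene Polrmt at 0.01 and -0.01. Lrpprc, which stabilises mitochondrial messages, was at -0.16 and -0.08. Among regulators, Nrf1 was at 0.07 in suspension and -0.08 in flight, Gabpa at -0.09 and -0.31, and Esrra at -0.22 and -0.15, all uncalled.

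Ppargc1a, which encodes PGC-1alpha, fell in flight by 1.23 on the log2 scale (SE 0.14, limma adjusted p = 0.000322), and in that comparison the members' median was -0.01. It was at -0.04 in suspension, where 68 of 74 members had a lower mean. It rose after reloading by 1.29 ± 0.27 (SE, limma adjusted p = 0.0261) relative to Suspension, where the members' median was 0.01. The Reloaded samples were widely spread, though (SD 0.92), and overlapped Suspension. Any part of Ppargc1a in the members' values was not tested.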

How the data were processed

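RNA from 23 mouse muscle samples was measured on Affymetrix arrays, 1 array per sample. Per the submitters' processing notes, the tools were RMA and MAS5, with their roles and versions not given in the sources used here. The deposited values of 22690 probe sets were on the log2 scale, from 2.49 to 14.23, and were used without further normalization. Arrays have no read depth, so the number of arrays limits the precision.

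After 64 control probe sets were removed, probe sets with 1 gene symbol in the platform table were kept, 1 per gene by the highest mean log2. A gene was tested if its log2 exceeded 5.83, the 40th percentile, on at least 4 arrays. limma 3.58.1 in R 4.3.3 (lmFit, eBayes, two-sided) was fitted to the 8 flight arrays, to the 15 calf arrays, and to all 23 arrays for differences of effects. p-values were adjusted by Benjamini-Hochberg over all 9133 genes tested, with calls under 0.05. The calculation was tested on simulated data with planted changes larger than any difference of a member, and with genes varying independently. It therefore does not cover changes of the members' size or members that move together.

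Named members were, per group comparison, the called members or the 12 with the smallest p, up to 6 of those whose groups did not overlap, and the highest and lowest differences. For each difference of effects they were the called members or the 3 with the smallest p, and the extremes. Other named genes were called genes of the context lists and 9 regulators and partners fixed by name. The members, lists and the subunit classes were chosen with earlier results of these data known. Alternatives changed the filter, probe-set choice, normalization, variance model, covariates and arrays used.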

Additional observations from a re-analysis of the deposited data

Results flagged for a closer look

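Values that stood far from the other samples of their group were looked for by Dixon's test in 170 groups of 4 or 5 samples, over 33 named members and the median of all members, and 17 were found. Chance gives about 1 in 20 groups. Reloaded replicate 16 was low in Mrps6 (log2 6.45, others 6.79 to 6.93), in Mrpl3 (7.90, others 8.10 to 8.14) and in Mrpl43 (7.37, others 7.72 to 7.86). Control replicate 21 was low in Mrpl33 (6.55, others 6.86 to 6.97), in Mrpl17 (8.59, others 8.76 to 8.81) and in Mrpl19 (6.62, others 6.81 to 6.88).

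Among Suspension samples, replicate 9 was high in Mrpl17 (8.99, others 8.56 to 8.69) and in Mrps24 (9.90, others 9.55 to 9.65), and replicate 11 was high in Mrpl21 (8.64, others 8.39 to 8.46). Replicate 8 was low in Mrpl3 (7.56, others 8.06 to 8.15). Mrpl36 was low in Suspension replicate 25 (6.96, others 7.06 to 7.09) and in Control replicate 1 (6.96, others 7.18 to 7.25), and high in Ground AEM replicate 1 (7.51, others 7.32 to 7.34). In Spaceflight, replicate 9 was low in Mrpl45 (8.18, others 8.35 to 8.38), while replicate 8 was high in Mrpl42 (11.68, others 11.60) and in Mrps36 (9.51, others 9.32 to 9.34). The median difference of all members from their Control mean was high in Control replicate 22 (0.07, others -0.04 to -0.01).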

How the results depend on the processing

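Over all alternatives, suspension and reloading kept 0 called members each, and so did reloaded. In suspension the median ranged from -0.14 to -0.06 and the number of members with a lower mean from 55 to 71 of 74. Leaving out 1 sample at a time gave -0.142 to -0.0837 in suspension (63 to 71 lower), -0.0267 to 0.0494 in reloading (24 to 45 lower), -0.151 to -0.0716 in reloaded (66 to 73 lower), the last end without Reloaded replicate 16, and -0.0175 to 0.0177 in flight (33 to 42 lower). Without Suspension replicates 8 and 30, chosen after seeing the data, the suspension median was -0.0565, reloading had 57 lower members, and flight minus suspension had 22 below 0 with a median of 0.0373.

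In flight, 1 member was called without Ground AEM replicate 2 (0 to 1 over single samples left out) and 1 when each probe set was tested on its own. In flight minus suspension, 1 was called with the mean of probe sets and 2 with the Spaceflight and Ground AEM titles exchanged. Members below 0 were 23 after quantile normalization, 22 with array range as a covariate (median 0.0416) and 7 to 18 with single samples left out, the lowest without Suspension replicate 9. In flight minus reloaded, 1 was called with the filter at the 60th percentile, 1 with trend and robust estimation, 6 with array weights, 3 without Suspension replicates 8 and 9, and 0 to 3 with single samples left out, the most without Reloaded replicate 33. Suspension samples enter that comparison only through the shared estimate of the spread. Leaving out replicates 8 and 9 kept the median at 0.102 and 13 members below 0. In the same comparison, 21 were below 0 with array range as a covariate and 9 to 20 with single samples left out, the most without Reloaded replicate 16.

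Averaging probe sets, which leaves 71 members, turned the sign of Mrpl17 (-0.016), Mrpl52 (0.080) and Mrpl42 (0.014) in flight, of Mrpl52 in suspension (-0.0039) and of Mrpl52 in flight minus suspension (0.084). Without Suspension replicates 8 and 30, Mrps18a in reloading was at -0.022. Mrps15 in reloaded ranged from -0.013 without Control replicate 2 to 0.098 without Control replicate 22, and was just below 0 without Reloaded replicate 15. With the titles exchanged, Mrpl33 was at -0.15 and Mrpl52 at 0.039 against suspension, and Mrpl33 at -0.062 and Mrps25 at 0.28 against reloaded. Where a change is not set by the alternative itself, the cause was not tested. No paired analysis was possible because the groups compared share no replicate numbers.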
